A study of Mus musculus with 2 samples.

Results

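The genes described here are 10 transcription factor genes of mesenchymal and mural cells, *Foxc1*, *Foxc2*, *Foxf2*, *Foxd1*, *Tbx18*, *Zic1*, *Ebf1*, *Ebf2*, *Twist1* and *Prrx1*. They were chosen by symbol, and all 10 were among the 31053 genes counted in each library. Cells were taken where over 1000 genes were seen and less than 20% of UMIs were mitochondrial. A UMI, a unique molecular identifier, marks 1 captured transcript. These limits kept 9950 of 10629 barcodes of the passage 5 library (PC5) and 4749 of 4884 barcodes of the passage 20 library (PC20).

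The study sequenced primary mouse brain pericytes (PCs), the mural cells of capillaries, as single cells from 1 culture at passage 5 and 1 culture at passage 20. In both, brains of 6 female wild type C57BL/6N mice of 6 to 8 weeks were pooled, digested with papain, and the cells were grown on collagen without endothelial cells, later in a commercial pericyte medium. The study's methods describe a different isolation for each culture, whereas the deposited design text mentions a lone set of mice, so passage and isolation cannot be told apart. With 1 library per passage, no test between passages was possible, and every interval below covers counting error in these libraries only.

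Forkhead, T-box, zinc finger, EBF, basic helix-loop-helix and homeobox factors bind DNA and set which genes a mesenchymal cell uses. In the head, PCs arise from neural crest and mesoderm, and factors such as *Foxc1*, *Foxf2* and *Tbx18* are known from the formation or the marking of brain mural cells. *Twist1* and *Prrx1* are used widely in mesenchyme and fibroblasts, and *Zic1* in the meninges and the dorsal neural tube.

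The kept cells held 223054273 UMIs in PC5, with a median of 21700 per cell, and 191122251 UMIs in PC20, with a median of 33424. The 2 libraries shared 20 barcodes, all kept in both, and doublets were not removed. The labelled cell type was borne out by few of its defining markers. *Pdgfrb*, the receptor for PDGF-B that marks PCs and other mural cells, had 44.6 UMIs per 1000000 UMIs (CPM) and was in 54.2% of cells in PC5, against 5.43 CPM and 16.5% in PC20. Of 12 PC markers only *Pdgfrb*, *Cspg4* and *Notch3* reached a share of 10% of cells in a library, PC5, which *Pdgfrb* alone also reached in PC20. *Abcc9* had 1 UMI in each library, *Atp13a5* had 0 in both, and *Kcnj8*, *Vtn* and *Rgs5* had 13, 20 and 405 UMIs in PC5 and 0 in PC20. The summed level of the 12 markers was 69.4 CPM in PC5 against 10.6 CPM in PC20. Fibroblast markers moved with it. Their 6 genes summed to 3614 CPM in PC5 against 107 CPM in PC20, smooth muscle markers to 304 against 52.9 CPM, endothelial markers to 199 against 74.1 CPM and astrocyte markers to 157 against 233 CPM. Of the smooth muscle markers, *Tagln* had 219 CPM in PC5 against 0.230 in PC20 and *Myl9* 20.5 against 2.40. *Acta2* differed little, with 62.8 against 49.2 CPM. Single endothelial and astrocyte markers went both ways within these sums. *Cdh5* had 168 CPM in PC5 against 0.0262 in PC20, but *Flt1* 17.6 against 73.9 CPM. *Slc4a4* had 143 CPM in PC5 against 229 in PC20, but *Aldh1l1* 7.35 against 0.0262 CPM. Oligodendrocyte and microglia markers summed to no more than 5.34 CPM in either library. The part of any other cell type in the levels of the 10 genes was not tested.

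The forkhead genes stood higher in PC5, by very unequal amounts. *Foxf2*, a forkhead factor of brain mural cells, had 5024 UMIs (22.5 CPM) in PC5 against 1 UMI (0.00523 CPM) in PC20, giving a log2 ratio of 12.07 whose 95% interval, from 9.59 to 17.38, is wide because of that lone UMI. *Foxd1*, known from the stroma of the kidney and from the forebrain, had 13316 UMIs (59.7 CPM) in PC5 against 17 (0.0889 CPM) in PC20, giving a log2 ratio of 9.39 (95% interval, 8.71 to 10.17). Both genes were thus close to absent from PC20. *Foxc2*, a factor of lymphatic vessels and of the mesoderm, had 7689 UMIs (34.5 CPM) and 226 UMIs (1.18 CPM), a log2 ratio of 4.87 (4.67 to 5.06). *Foxc1*, its paralogue with roles in the meninges and in brain vessels, had 24045 UMIs (108 CPM) and 4956 UMIs (25.9 CPM), a log2 ratio of 2.06 (2.01 to 2.10). *Foxc1* was thus the forkhead member that PC20 still held at a sizeable level, 4.16-fold below PC5.

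*Tbx18* and *Zic1* followed *Foxf2* and *Foxd1*. *Tbx18*, the T-box factor used as a genetic marker of mural cells, had 26712 UMIs (120 CPM) in PC5 against 81 UMIs (0.424 CPM) in PC20, giving a log2 ratio of 8.14 (7.83 to 8.48). *Zic1*, a zinc finger factor, had 15177 UMIs (68.0 CPM) in PC5 and 0 in PC20, and so was at least 4335-fold higher in PC5 when PC20 is set to 3 UMIs (log2 of 12.08, with a lower limit of the 95% interval of 11.78). It was the only member with no UMI in a library.

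The EBF pair went in opposite directions. *Ebf1* and *Ebf2* encode early B cell factors, which also act in adipocyte and stromal precursors. *Ebf2* had 3642 UMIs (16.3 CPM) in PC5 against 88 UMIs (0.460 CPM) in PC20, giving a log2 ratio of 5.15 (4.84 to 5.47). *Ebf1* had 656 UMIs (2.94 CPM) in PC5 against 2552 UMIs (13.4 CPM) in PC20, giving a log2 ratio of -2.18 (-2.31 to -2.06), and was the only member over 2-fold higher in PC20. The paralogues thus lay on opposite sides of 0 by more than their intervals.

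*Twist1* and *Prrx1* differed little. *Twist1*, the basic helix-loop-helix factor of mesenchyme and of epithelial to mesenchymal transition, had 24764 UMIs (111 CPM) in PC5 against 16714 UMIs (87.5 CPM) in PC20, giving a log2 ratio of 0.34 (0.32 to 0.37). *Prrx1*, a homeobox factor of limb and craniofacial mesenchyme, had 40873 UMIs (183 CPM) and 40204 UMIs (210 CPM), a log2 ratio of -0.20 (-0.22 to -0.18). These intervals leave out 0 only in the sense of counting error, and the spread between cultures at 1 passage is not known.

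**Figure D1:**
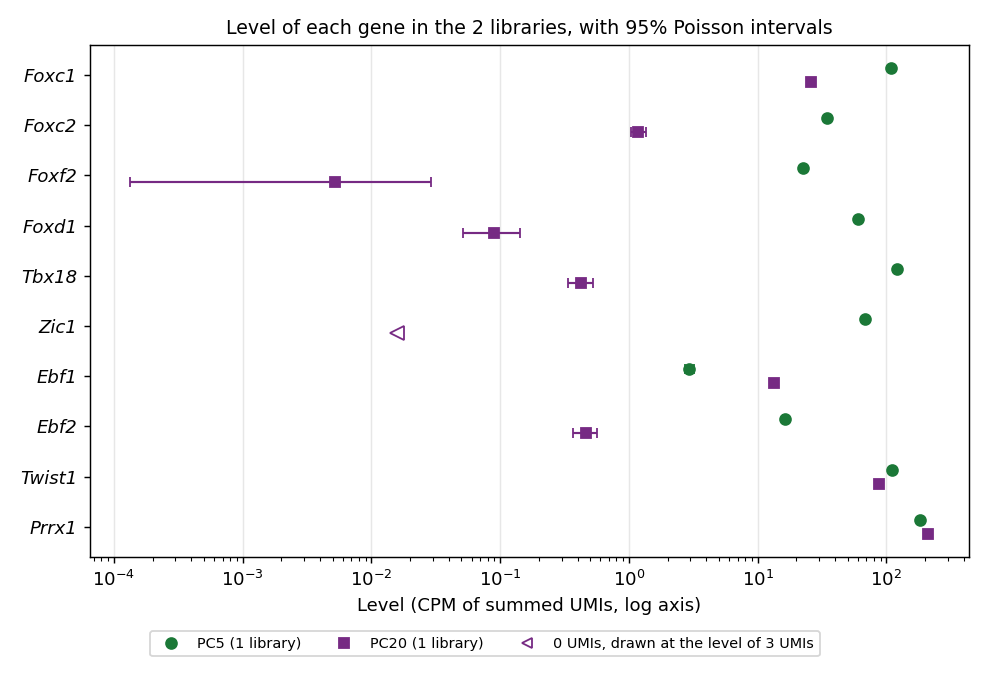
Level of each of the 10 genes in PC5 (circles) and PC20 (squares), in CPM of summed UMIs on a log axis, with 95% Poisson intervals; the open triangle is *Zic1* in PC20, with 0 UMIs, drawn at the level of 3 UMIs. The markers of *Twist1* and *Prrx1* nearly coincide, those of *Foxf2* (22.5 and 0.00523 CPM) are the farthest apart of the genes with UMIs in both libraries, and *Ebf1* has PC20 clearly on the right.

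Counted together, 7 of the 10 genes had a log2 ratio (PC5 over PC20) above 1, 1 had a ratio below -1 and 2 lay between. Of 10504 genes with a UMI in 10% or more of the kept cells of a library, 17.9% had a ratio above 1 and 19.1% a ratio below -1. All 10 members passed that 10% limit, but 6 passed only through PC5 and *Ebf1* only through PC20, so those had to differ and the count lends no support of its own. *Foxc1*, *Twist1* and *Prrx1* passed in both. The median log2 ratio of the 10 was 5.01, beside -0.034 over the 10504 genes. Of the members, 6 had a log2 ratio above 4, as had 3.13% of the expressed genes, and 4.91% of these lay past 4 in either direction. Those 6 members were the same that passed only through PC5. The count above 4, the median of 5.01 and the ranks of those 6 thus lend no support of their own either. For 13 expressed genes the ratio was above that of *Zic1* at its bound, for 14 above *Foxf2*, for 66 above *Foxd1* and for 108 above *Tbx18*. The ratio of *Foxf2* rests on 1 UMI in PC20 and the bound of *Zic1* on 3 UMIs, so their ranks are not on a like scale. *Foxc1* had 738 above it, while *Prrx1*, with 5903 above and 4600 below, sat near the middle.

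Shares of cells were compared at equal depth. PC20 cells held more UMIs, so each cell was thinned to 10500 UMIs, which left out 1103 shallower cells of PC5 and 275 of PC20, and shares were counted over 8847 and 4474 cells. *Tbx18* was seen in 64.2% of cells in PC5 (95% Clopper-Pearson interval, 63.2 to 65.2) and 0.447% in PC20 (0.273 to 0.690), against 79.3% and 1.64% without thinning. *Foxc1* was seen in 63.2% and 22.4% (79.0% and 49.2% without thinning), *Zic1* in 47.1% and 0% (65.5% and 0%), and *Foxd1* in 36.3% and 0.112% (49.1% and 0.337%). Each of these was thus common in PC5 cells, and of them only *Foxc1* was common in PC20. *Foxc2* was seen in 28.0% and 1.32% (46.2% and 4.32%), *Foxf2* in 20.4% and 0% (35.4% and 0.0211%), and *Ebf2* in 14.6% and 0.291% (25.3% and 1.43%). *Ebf1* was again the reverse, with 3.06% and 11.2% (5.81% and 29.9%).

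For *Twist1* the depth set the order. Without thinning it was seen in more cells of PC20 (87.1%) than of PC5 (81.2%), whereas at equal depth it was seen in 65.3% of cells in PC5 (64.3 to 66.3) and 57.6% in PC20 (56.2 to 59.1), the order of its CPM. *Prrx1* was seen in 74.4% of cells in PC5 (73.4 to 75.3) and 83.9% in PC20 (82.8 to 85.0), and in 85.7% and 95.2% without thinning. So *Prrx1* was in most cells of both libraries and *Twist1* in over 50% of both.

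**Figure D2:**
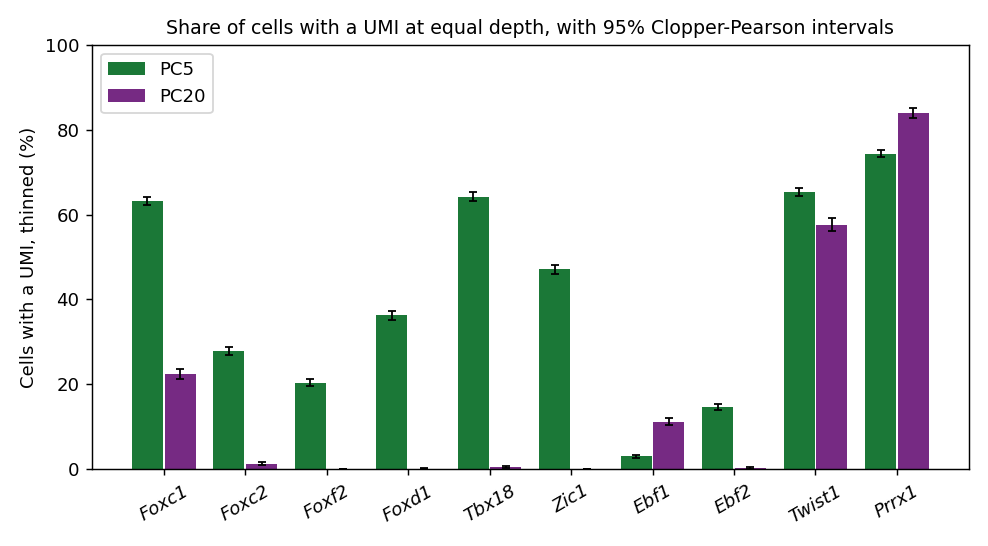
Share of cells with a UMI of each gene after thinning every cell to 10500 UMIs, in percent of 8847 PC5 cells and 4474 PC20 cells, with 95% Clopper-Pearson intervals. Bars of PC20 are visible only for *Foxc1* (22.4%), *Foxc2* (1.32%), *Ebf1* (11.2%), *Twist1* (57.6%) and *Prrx1* (83.9%).

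No cell type known to lack these genes was set apart in the cultures, and whether one was present was not tested. So 10 genes of other lineages (among them *Alb*, *Ins2* and *Cd3e*) gave the background. Their highest thinned share was 0.113% in PC5 and 0.0224% in PC20, with 3 and 8 of the 10 at 0. Every member lay above that in PC5. In PC20 *Foxf2* and *Zic1* lay below it, and *Foxd1* (5 thinned cells), *Ebf2* (13) and *Tbx18* (20) above it. The 0 of 4749 PC20 cells for *Zic1* allows a share of up to 0.0632% of cells with a UMI when set to 3 cells, or 0.0776% by the upper Clopper-Pearson limit.

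Few cells of PC20 held a UMI of the low members. Of the 4749 PC20 cells, 351 held a UMI of *Foxc2* (205 cells), *Tbx18* (78), *Ebf2* (68), *Foxd1* (16) or *Foxf2* (1), and 17 of these held more than 1 of the 5 genes. Most had a lone UMI, as in 187 of the 205 *Foxc2* cells and 75 of the 78 *Tbx18* cells, while *Ebf2* reached 5 UMIs in a cell. These cells were deeper than most, with medians of 46850 UMIs for *Tbx18* to 53246.5 for *Foxd1* among the 4 genes seen in more than 1 cell, against 33424 over the library. Of the barcodes, 2 of the 351 were among the 20 shared ones. In PC5, *Ebf1* was in 578 cells, 518 of them with 1 UMI.

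RefSeq promoters (GRCm38.p6, 250 bases before to 50 after the start) were found for 8 of the members, not for *Foxc2* and *Ebf2*. The bases before the start are shown for *Foxf2* and *Tbx18*, near 0 in PC20, and for *Foxc1* and *Twist1*, present in both libraries, so that the sequence beside each start can be compared. They run 5′ to 3′ on the strand of the gene, at chr13:31625566-31625815 (+), chr9:87731261-87731510 (-), chr13:31806396-31806645 (+) and chr12:33957421-33957670 (+). Capitals mark CG dinucleotides.
Foxf2: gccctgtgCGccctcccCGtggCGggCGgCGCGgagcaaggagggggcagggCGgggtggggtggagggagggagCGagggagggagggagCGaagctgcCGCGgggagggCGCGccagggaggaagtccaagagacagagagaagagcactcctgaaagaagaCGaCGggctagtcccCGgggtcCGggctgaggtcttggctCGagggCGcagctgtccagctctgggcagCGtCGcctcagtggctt
Tbx18: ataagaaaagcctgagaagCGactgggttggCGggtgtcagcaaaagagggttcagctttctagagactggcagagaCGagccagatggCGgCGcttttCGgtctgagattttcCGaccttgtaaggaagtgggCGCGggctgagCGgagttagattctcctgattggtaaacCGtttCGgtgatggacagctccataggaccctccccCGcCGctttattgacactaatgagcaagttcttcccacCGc
Foxc1: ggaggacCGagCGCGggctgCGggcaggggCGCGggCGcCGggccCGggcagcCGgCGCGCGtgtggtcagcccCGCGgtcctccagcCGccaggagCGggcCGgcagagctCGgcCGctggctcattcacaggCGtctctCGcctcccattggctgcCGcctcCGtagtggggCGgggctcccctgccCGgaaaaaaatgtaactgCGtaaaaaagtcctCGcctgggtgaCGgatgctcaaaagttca
Twist1: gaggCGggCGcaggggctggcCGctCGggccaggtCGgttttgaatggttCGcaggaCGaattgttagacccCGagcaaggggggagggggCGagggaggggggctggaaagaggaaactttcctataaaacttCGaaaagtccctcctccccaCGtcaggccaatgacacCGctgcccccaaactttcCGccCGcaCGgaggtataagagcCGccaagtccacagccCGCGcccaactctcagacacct
The stretches hold 21, 15, 29 and 18 CG dinucleotides. Over the full 300 bases the 8 members had from 6 (*Prrx1*) to 32 (*Foxc1*), with 31 in *Zic1*, 27 in *Foxf2* and *Twist1*, 15 in *Foxd1* and *Tbx18* and 9 in *Ebf1*, where the median of 32851 promoters was 7 and the quartiles 3 and 20. The *Ebf1* promoter read is the nearer of 2 entries, and its start lies 783 bases inside the gene from the annotated start. CG-rich starts were thus found both among members near 0 in PC20 (*Zic1*, *Foxf2*) and among those present in both libraries (*Foxc1*, *Twist1*). Motifs were searched on both strands. TATAAA was in *Twist1* (13.6% of all promoters), CAGATG in *Tbx18* (17.2%) and TAATTA in *Prrx1* (5.29%). GTAAACA (3.65%), AGGTGTGA (1.28%) and the palindromic EBF motif (0.904%) were in none of the 8. None of the 8 held more than 1 of these motifs, so no hits overlapped.

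Position on the chromosome is given by GENCODE M21 on GRCm38. *Foxf2* (chr13:31625816-31631403) and *Foxc1* (chr13:31806633-31812476) are neighbours, 175229 bases apart on the plus strand, yet their log2 ratios were 12.07 and 2.06. *Foxq1*, 64839 bases before *Foxf2*, had 118 and 3 UMIs. *Foxc2* (chr8:121116171-121118895) lies in a second forkhead row, 28026 bases after *Foxf1* and 9044 bases before *Foxl1*. *Foxl1* had 1872 UMIs (8.39 CPM) in PC5 against 16 (0.0837 CPM) in PC20, giving a log2 ratio of 6.65 (5.94 to 7.46), while *Foxf1* had 412 UMIs (1.85 CPM) and 5868 (30.7 CPM), a log2 ratio of -4.06 (-4.20 to -3.91). In both rows, then, adjacent forkhead genes differed in their ratios, and on chromosome 8 *Foxf1* lay on the other side of 0 from *Foxc2* and *Foxl1*. A gene model that spans this row, *Gm20388*, had 0 UMIs.

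*Zic1* (chr9:91358058-91365810, minus strand) overlaps *Zic4* on the plus strand over 3398 bases. *Zic4* had 2257 UMIs (10.1 CPM) in PC5 and 0 in PC20, a log2 bound of 9.33, so both genes of the pair were seen in PC5 only. *Tbx18* (chr9:87702800-87731260) and *Ebf2* (chr14:67233292-67430918) have no relative beside them. *Ebf1* (chr11:44617317-45008091) follows *Rnf145*, which went the other way, with 55.9 CPM in PC5 against 10.8 CPM in PC20. *Foxd1* lies at chr13:98354242-98359305, *Twist1* at chr12:33957671-33959829 and *Prrx1* at chr1:163245119-163313710. *Gm26523* overlaps *Prrx1* on its strand and had 7.99 and 9.08 CPM, so some reads of that stretch may be assigned to either.

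Relatives of the members were read from a list of 26 genes, of which 18 passed the 10% limit and are called expressed. Of the 18, 9 had a log2 ratio above 1, 2 below -1 and 7 between, with a median of 0.95. 7 of the 18 passed the 10% limit only through PC5 and 2 only through PC20, so the counts lend no support of their own. Among all expressed genes 17.9% lay above 1 and 19.1% below -1. *Zic4*, *Zic2* and *Foxs1* were farthest from 0. *Zic2*, a zinc finger factor of the neural tube, had 16.8 CPM in PC5 against 0.0680 in PC20 (log2 of 7.95), and *Foxs1*, a forkhead factor known from pericytes, had 8.86 and 0.0785 CPM (6.82). *Zic5* had 29.7 and 0.764 CPM (5.28).

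T-box relatives were mixed. *Tbx20* had a log2 ratio of 5.36 and *Tbx15* of 2.89, both higher in PC5 like *Tbx18*, whereas *Tbx3* stood at 3.16 CPM in PC5 against 10.9 CPM in PC20 (-1.79) and *Tbx5* had 0 UMIs in both. Of the other relatives, *Twist2* had a log2 ratio of 2.91 where *Twist1* had 0.34, and *Prrx2* of 0.25 where *Prrx1* had -0.20. The remaining EBF genes were hardly seen, with 2 and 2 UMIs of *Ebf3* and 84 and 128 of *Ebf4*. Of the forkhead relatives between -1 and 1, *Foxo3* had a log2 ratio of -0.10, *Foxk1* of 0.47 and *Foxn3* of 0.76.

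Other mesenchymal factors did not share one direction. Of 26 listed, 19 were expressed, 7 above 1, 7 below -1 and 5 between, with a median of 0.17. Of the 19, 5 passed the 10% limit only through PC5 and 4 only through PC20. *Tfap2b*, a neural crest factor, had 75.7 CPM in PC5 against 0 in PC20 (log2 bound of 12.24). *Six2* (log2 of -7.81) and *Scx* (-6.74) were the reverse, higher in PC20. Of 13 other mural factors 9 were expressed, with 5 above 1, 0 below -1 and a median of 1.11. Of the 9, 1 passed the limit only through PC5. Both lists were chosen with earlier results of these data known, so their counts and medians lend no support of their own. Beside both lists, 17.9% of all expressed genes lay above 1 and 19.1% below -1. *Epas1*, a hypoxia-inducible factor of PCs, had a log2 ratio of 3.26, *Hes1*, a Notch target, 2.07, and *Nr2f2*, a nuclear receptor of veins and stroma, stood at 224 CPM in PC5 against 79.4 CPM in PC20. *Myocd*, the smooth muscle coactivator, was below the limit with 88 and 0 UMIs.

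Partners of Twist and EBF proteins were read from 9 genes, 7 of them expressed, with 4 above 1, 2 below -1 and a median of 1.33. Of the 7, 1 passed the limit for expressed genes only through PC20. Beside this list, 17.9% of all expressed genes lay above 1 and 19.1% below -1. The list was chosen with earlier results of these data known, so its counts and median lend no support of their own. *Tcf4*, an E protein that pairs with TWIST1, had 767 CPM in PC5 against 217 CPM in PC20 (log2 of 1.82). *Id3* had 382 and 103 CPM (1.89), while *Id4* had 0.309 and 44.9 CPM (-7.18). Id proteins bind E proteins without binding DNA. *Twist1* itself thus stood at like levels beside partners that differed. *Zfp521* and *Zfp423*, zinc finger partners of EBF proteins, had 23 and 355 UMIs in PC5 and 3 and 30 in PC20.

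**Figure D3:**
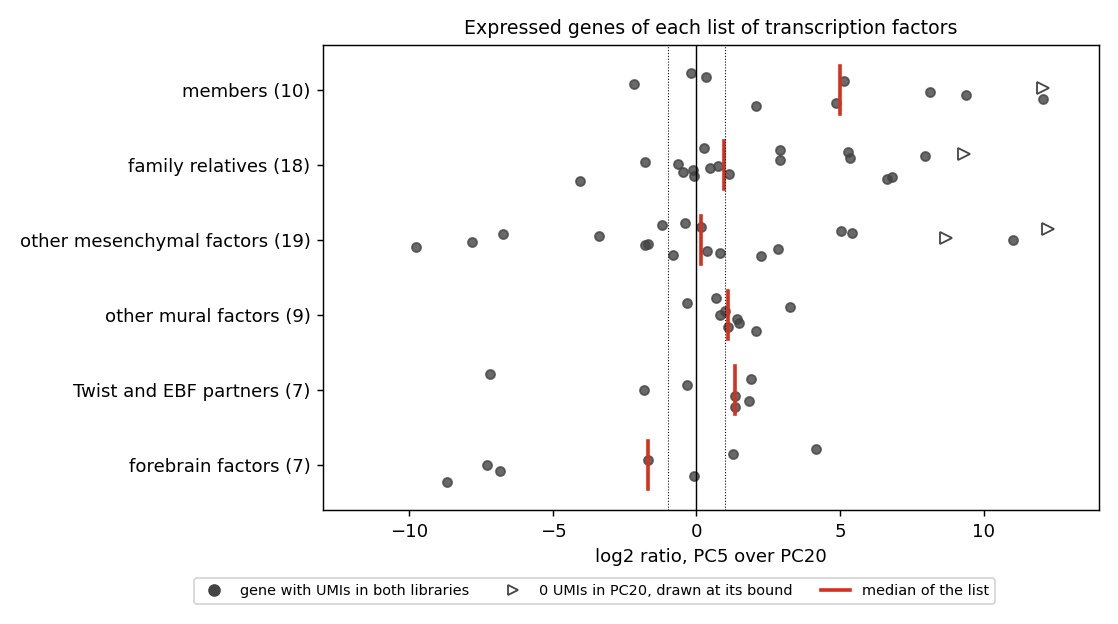
The log2 ratio of PC5 over PC20 for each expressed gene of the member list and of 5 lists of other transcription factors, with the number of expressed genes in brackets; open triangles are genes with 0 UMIs in PC20 at their bound, the red line is the list's median and the dotted lines mark 1 and -1. The medians run from -1.67 for the 7 forebrain factors to 5.01 for the 10 members. Genes that passed the 10% limit through 1 library only are included, 6 of the members through PC5, so the medians lend no support of their own.

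Structural genes of mesenchyme and epithelium were read beside these factors. All 10 mesenchymal structural genes were expressed and 7 had a log2 ratio above 1, with 0 below -1 and a median of 3.89, but 5 passed the 10% limit only through PC5 and so had to differ. *Col1a2*, a chain of type I collagen, had 1737 CPM in PC5 against 0.0471 in PC20, *Postn*, periostin, 80.9 and 0.0105, and *Pdgfra* 88.6 and 0.131. Of 10 epithelial genes 3 were expressed and all 3 had a ratio below -1, 2 of which passed only through PC20. The counts of both lists lend no support of their own, and over all expressed genes 17.9% lay above 1 and 19.1% below -1. *Krt18* and *Krt8*, keratins of simple epithelia, had 0.134 and 0.0269 CPM in PC5 but 913 and 98.4 CPM in PC20, and *Krt19* 46.5 and 120 CPM. *Cdh1*, the epithelial cadherin, had 4 and 25 UMIs. *Twist1* (1.27-fold) and *Prrx1* (1.15-fold) thus differed little between a library rich in *Col1a2* and a library nearly without it.

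Within PC5 the members were spread less evenly over cells than random counts. The Fano factor, the variance of the thinned UMIs over their mean, is 1 for counts spread at random and tends to grow with the mean, so it does not rank genes of different levels. It was 2.11 for *Prrx1*, 1.98 for *Foxd1* and 1.65 for *Tbx18*, and 1.36 for both *Foxc1* and *Zic1*. The other 5 lay below that, the lowest being *Ebf1* at 1.11. At its mean, *Foxd1* would have been in 47.3% of cells by a Poisson law and was in 36.3%, with up to 14 UMIs in a thinned cell, and *Prrx1* would have been in 86.1% and was in 74.4%. In PC20 the factor was 1.38 for *Prrx1* and for *Ebf1*, 1.29 for *Foxc1* and 1.15 for *Twist1*.

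Most PC5 cells held several of the genes at once. At 10500 UMIs a PC5 cell held a median of 4 of the 10 (quartiles, 3 and 5) and a PC20 cell a median of 2 (1 and 2). In PC5, 40.9% of cells held 5 or more and 8 cells held 9, whereas in PC20 2 cells, 0.0447%, held 5. None was seen in 0.531% of cells in PC5 and 5.19% in PC20. The medians were 6 and 3 without thinning and 3 and 1 at 5000 UMIs. They were the same in cells with and without a UMI of the proliferation genes *Mki67* or *Top2a*, at 4 in PC5 and 2 in PC20.

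**Figure D4:**
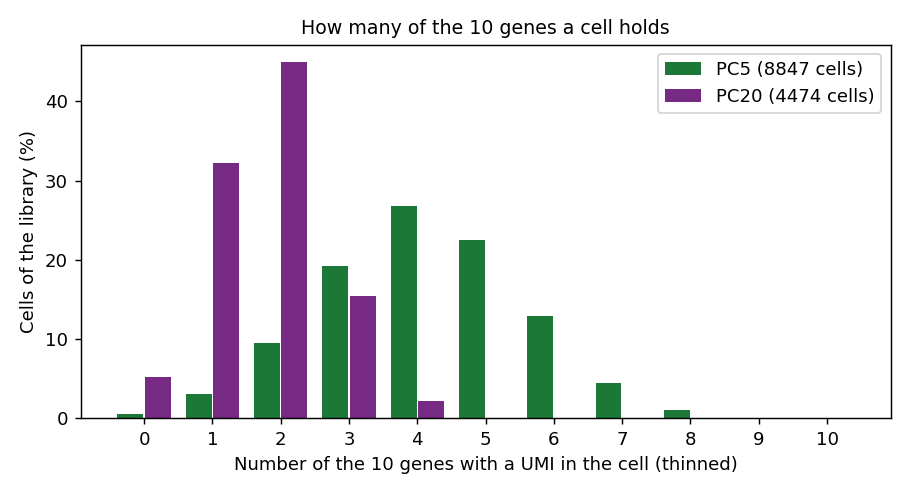
Number of the 10 genes with a UMI in a cell thinned to 10500 UMIs, as a share of the cells of PC5 (8847) and PC20 (4474). PC5 peaks at 4 genes (26.8% of cells) and PC20 at 2 (44.9%).

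Pairs of members were found in the same cells about as often as the product of their shares. Over the 45 pairs of PC5 the ratio of the observed share to that product ran from 0.831 to 1.21 with a median of 1.02. Pearson's *r* of the log of 1 plus the thinned UMIs ran from -0.176 to 0.131 over 8847 cells. These are descriptions, since cells of 1 library share their library and preparation. The highest ratios were those of *Foxd1* with *Ebf2* (1.21) and with *Foxc2* (1.19). *Foxd1* was in 43.1% of the cells with *Foxc2* and in 33.6% of those without, and *Ebf2* in 17.7% of the cells with *Foxd1* and 12.9% of those without. *Tbx18* was in 67.4% of cells with *Foxc1* and 58.7% of those without, the highest *r* (0.131).

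*Foxd1* and *Prrx1* were the pair most often apart by *r* (-0.176). *Foxd1* was in 33.1% of cells with *Prrx1* and in 45.4% of those without, a ratio of 0.914. *Foxc2* and *Prrx1* also had a ratio under 1, 0.939. *Ebf1*, in few PC5 cells, had ratios of 0.831 with *Foxc2*, 0.832 with *Foxf2* and 0.834 with *Foxd1*, each from 46 to 82 cells with both. Without thinning most of these ratios lay above 1. *Prrx1* then had 1.01 with *Foxd1* and 1.02 with *Foxc2*. *Ebf1* had 1.02 with *Foxc2* and 1.09 with *Foxf2*, but 0.963 with *Foxd1*. In PC20, 10 pairs could be read, with ratios from 0.904 to 1.21. *Ebf1* was in 13.6% of the cells with *Foxc1* and in 10.6% of those without, a ratio of 1.21 from 136 cells, and *Twist1* and *Prrx1* had a ratio of 1.01.

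Joint clustering of both libraries, with the 10 genes left out of the variable genes, gave 15 clusters, 9 with at least 50 PC5 cells and 6 with at least 50 PC20 cells. In PC5, cluster 8 (854 cells, led by *Stra6*, *Clu* and *Postn*) had the highest *Prrx1* and *Zic1*, 344 and 95.2 CPM, and the lowest *Foxd1*, 15.5 CPM. Cluster 4 (1222 cells, led by *Trf*, *Il33* and *Dcn*) had the highest *Foxd1* (97.1 CPM), *Tbx18* (167 CPM) and *Foxf2* (30.9 CPM), with *Prrx1* at 159 CPM. This contrast of *Foxd1* and *Prrx1* was seen at resolution 0.8 and not at the coarser resolution 0.4. There the 3 large PC5 clusters had *Foxd1* at 55.8 to 62.9 CPM and *Prrx1* at 170 to 193 CPM. Cluster 3 (with *Mgp* among its leading genes) had the highest *Ebf1*, 7.53 CPM, over a range that began at 1.47 CPM, while at resolution 0.4 the highest was 4.59 CPM.

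The lowest values of 6 members in PC5 fell in cluster 10, whose 350 PC5 cells had a median of 5671 UMIs and were led by *AY036118*, *Lars2* and *Gm42418*. There *Tbx18* was at 24.0, *Foxc1* at 30.7 and *Zic1* at 16.2 CPM. Cluster 14, of 77 PC5 cells, was led by *Igfbp2*, *Gpm6b* and *Serpina3n* and had *Sox2* among its leading genes. *Ebf2* and *Prrx1* were lowest there, but their intervals overlapped those of the next lowest clusters. *Ebf2* was at 2.44 CPM, from 3 UMIs (interval, 0.502 to 7.12), against 3.73 CPM (1.71 to 7.08) in cluster 10. The lowest cluster at resolution 0.4 had *Ebf2* at 4.12 CPM. *Prrx1* was at 97.4 CPM (80.8 to 116) in cluster 14, against 103 CPM (98.8 to 108) in cluster 6 and 108 CPM (96.4 to 121) in cluster 13. No PC5 cluster lacked *Tbx18*, *Zic1* or *Foxf2*.

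In PC20, cluster 12 (182 cells, with *Bgn* and *Cdo1* among its leading genes) had the highest *Foxc1* (57.4 CPM), *Ebf1* (38.3 CPM) and *Prrx1* (257 CPM). The other 5 clusters held *Ebf1* at 6.73 to 12.9 CPM. At resolution 0.4 the highest *Ebf1* of a PC20 cluster was 19.7 CPM, so the 38.3 CPM holds only for the finer clusters. The same coarser cluster had the highest *Foxc1*, 45.2 CPM, but *Prrx1* at 197 CPM. *Prrx1* was highest there in another cluster, at 226 CPM, so its peak also depended on the resolution. *Twist1* was highest in cluster 9, led by *Ctla2a*, *Nfkbia* and *Nr1d1*, at 118 CPM. *Zic1* was at 0 in all 6 PC20 clusters and *Tbx18* at no more than 0.578 CPM in any. *Ebf2* was at 0.743 CPM (95% interval, 0.542 to 0.994) in cluster 2 against 0.196 CPM (0.0896 to 0.372) in cluster 5. Cluster 11, with a median of 6741.5 UMIs in its 194 PC20 cells, had the lowest *Foxc1*, *Ebf1*, *Twist1* and *Prrx1*. Cluster values are descriptions of these libraries.

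**Figure D5:**
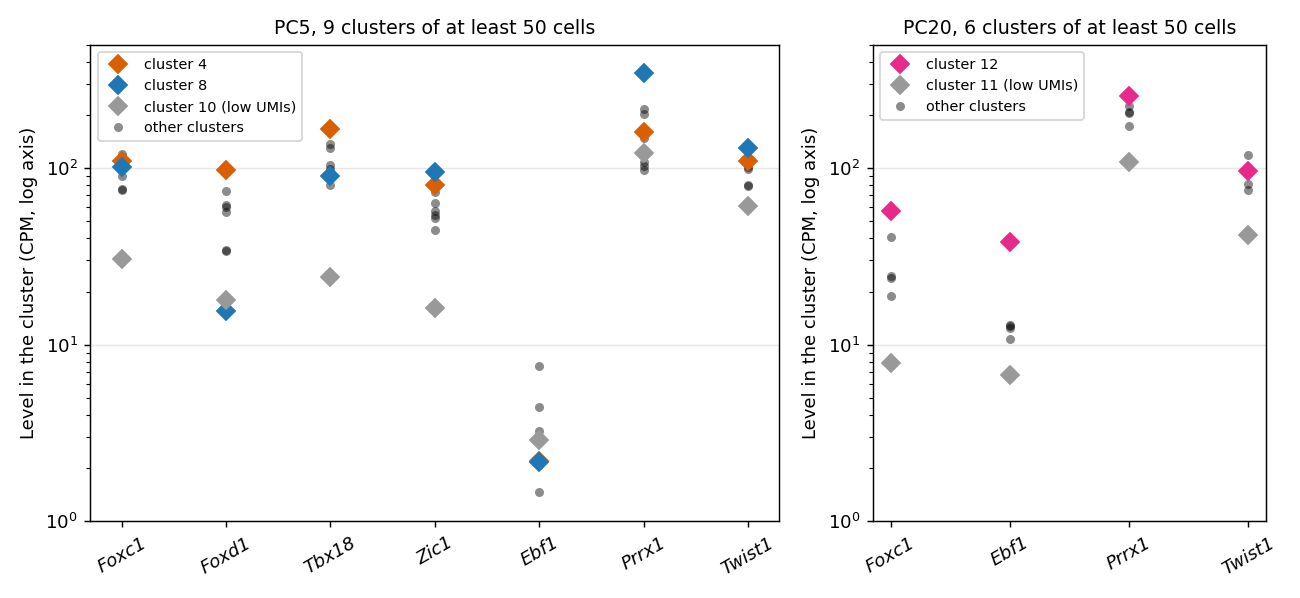
Level of selected members in each cluster at resolution 0.8, in CPM of summed UMIs on a log axis, for the 9 clusters of PC5 and the 6 of PC20 with at least 50 cells of that library. Coloured diamonds are clusters 4 and 8 of PC5 and cluster 12 of PC20. Grey diamonds are clusters 10 (PC5) and 11 (PC20), with few UMIs per cell. Circles are the other clusters, some of them also named in the text. Cluster 8 has *Prrx1* at 344 CPM and *Foxd1* at 15.5 CPM, cluster 4 *Foxd1* at 97.1 CPM, and cluster 12 of PC20 *Ebf1* at 38.3 CPM.

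Cells were also split, at equal depth, by a UMI of a mural or contractile gene. *Foxd1* showed the clearest difference in PC5, at 46.1 CPM in 2519 cells with *Acta2*, smooth muscle actin, and 66.9 CPM in 6328 cells without (log2 of -0.54, 95% interval -0.63 to -0.45). With *Tagln*, another contractile gene, it was at 54.8 and 69.6 CPM (-0.35), and *Ebf2* at 14.8 and 18.7 CPM (-0.34). *Ebf2* was also lower with *Acta2* (-0.28, -0.45 to -0.11), and *Tbx18* was lower with *Acta2* (-0.21, -0.27 to -0.15) and, by less, with *Tagln* (-0.085, -0.14 to -0.031). *Foxc2* and *Twist1* were lower with either gene as well, by 0.22 or less on the log2 scale, and *Foxf2* with *Tagln* (-0.17). For *Foxc1* the *Acta2* difference was 0.0053 (-0.057 to 0.067). In the 139 thinned cells with *Rgs5*, a PC marker, the intervals of all 10 members included 0, the narrowest being that of *Prrx1* (-0.25 to 0.11). Without thinning 282 cells had *Rgs5*, at a median of 22471.5 UMIs against 21677.5 in the rest, and 4 members were higher in them by more than counting error. These were *Ebf2* (0.40, 0.15 to 0.64), *Foxf2* (0.29, 0.072 to 0.51), *Foxd1* (0.25, 0.11 to 0.38) and *Prrx1* (0.12, 0.042 to 0.20). Their intervals treat UMIs, not cells, as the unit and leave out the uneven spread over cells, so they are too narrow. The share of all genes that differed between the same cells is not given here, so this count of 4 lends no support of its own.

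In PC5 cells with *Pdgfrb*, *Zic1* (log2 of 0.16), *Prrx1* (0.15), *Foxc1* (0.12) and *Tbx18* (0.10) were slightly higher than in cells without. In PC20, 235 thinned cells had *Pdgfrb*, and in them *Foxc1* was at 42.6 CPM against 25.8 CPM in the rest (0.72, 0.42 to 1.01), *Ebf1* at 17.8 against 12.7 CPM (0.49, 0.013 to 0.93) and *Prrx1* at 244 against 207 CPM (0.24, 0.12 to 0.36). *Mki67* and *Top2a* mark proliferating cells. Cells with a UMI of either had less *Tbx18* in PC5 (-0.25, -0.31 to -0.19) and more *Twist1* (0.17, 0.11 to 0.23). In PC20 such cells had less *Ebf1* (-0.34, -0.57 to -0.11) and less *Foxc1* (-0.29, -0.45 to -0.13). These intervals treat UMIs, not cells, as the unit.

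Genes with the most similar pattern to each member were sought over all genes seen in at least 10% of a library's cells, by Pearson's *r* of log UMIs per 10000, and named at 0.2 or more. In 9950 PC5 cells, *Tbx18* went with *Tgfbr2* (0.29) and *Cp* (0.27), *Foxd1* with *Tgfbr2* (0.25), *Nr2f1* and *Rpl28* (both 0.22), and *Foxc1* with *Tbx18* (0.23). *Zic1* (0.26) and *Twist1* (0.24) both went most with *Tcf4*. *Prrx1* went with *Prrc2c* (0.35), *Gxylt2* (0.34) and *Tead1* (0.30). *Foxc2*, *Foxf2* and *Ebf2* had none at 0.2. In 4749 PC20 cells, *Foxc1* went with *Nrip1* (0.31), *Ebf1* with *Ogn* (0.27), *Twist1* with *Nfkbia* (0.26) and *Prrx1* with *Scd2* (0.33). All are weak, over cells that share their library, and were computed without equal depth.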

How the data were processed

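Single-cell RNA was measured in cultured mouse brain PCs, 1 library at passage 5 and 1 at passage 20. The deposited tables hold UMI counts for each gene and barcode, which the authors made with CellRanger from 10x 3′ libraries on mm10, called into cells and left without normalization. The submitters' processing notes name Cell Ranger 5.0. The gene annotation and whether counting used strand are not given in the sources used here. Libraries were grouped by passage as labelled.

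The study's cell limits were used (over 1000 genes, less than 20% of UMIs mitochondrial). CPM was computed from UMIs summed over kept cells, and log2 ratios are PC5 over PC20, without a pseudocount. A library with 0 UMIs was set to 3 UMIs for a bound. The 95% intervals (exact Poisson for CPM, conditional binomial for ratios, Clopper-Pearson for shares) describe counting error only, and no test between passages was made, because cells of 1 library are not replicates. A gene counted as expressed when 10% or more of the kept cells of a library held it. Clusters came from Seurat 5.3.0 (R 4.3.3) with 2000 variable genes, mitochondrial and ribosomal percentages regressed, 15 dimensions and resolution 0.8. The rest was computed in Python 3.11.15 with numpy 2.4.6, scipy 1.17.1 and pandas 2.3.3. Scripts were tested on simulated data.

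GENCODE M21 held 30934 of the 31053 gene identifiers. Promoters are RefSeq's (GRCm38.p6). The motifs searched are the TATA box and core sites of these families other than the zinc finger family, for which no site was searched.

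The members and lists were chosen with earlier results of these data known. Named beside the members are the 3 genes of each list with the largest log2 ratio in size, their neighbours on the chromosome and their most similar genes, of which some are not reported here. *Foxf1*, *Zic5*, *Six2*, *Scx* and the other relatives and list genes given were picked after their values were seen. Alternatives covered cell filters, depth, library size, weighting, cell cycle, pseudocount, low-count filters and cluster resolution. The study's freshly isolated cells were not analysed here.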

Additional observations from a re-analysis of the deposited data

Results flagged for a closer look

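*Foxc1* went opposite ways with proliferation in the 2 libraries, by little in PC5. At equal depth its level in cells with a UMI of *Mki67* or *Top2a* was higher than in cells without by 0.0928 on the log2 scale in PC5 and lower in PC20, at -0.29. Both values treat UMIs, not cells, as the unit. The difference between the libraries was not tested, since each passage has 1 library.

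Barcodes left out by the limits on genes and mitochondrial UMIs also held the members. The 679 barcodes left out of PC5 had 924207 UMIs, among them 72 of *Foxc1*, 25 of *Foxc2*, 19 of *Foxf2*, 30 of *Foxd1*, 60 of *Tbx18*, 48 of *Zic1*, 4 of *Ebf1*, 4 of *Ebf2*, 80 of *Twist1* and 116 of *Prrx1*. The 135 left out of PC20 had 184103 UMIs, with 3 of *Foxc1*, 6 of *Ebf1*, 8 of *Twist1* and 31 of *Prrx1*. *Zic1*, *Foxf2*, *Foxd1*, *Tbx18*, *Foxc2* and *Ebf2* had 0 UMIs in those PC20 barcodes.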

How the results depend on the processing

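All 10 members kept the sign of their log2 ratio in the 11 alternatives run for them, and the 7 members above 1 and *Ebf1* below -1 stayed so. The sign was partly fixed beforehand, since a pseudocount cannot change it and *Zic1*, without a UMI in PC20, could only be higher in PC5. Sizes moved most with a pseudocount of 1 CPM, to 4.55 for *Foxf2*, 5.80 for *Foxd1*, 6.41 for *Tbx18*, 6.11 for *Zic1*, 4.02 for *Foxc2*, 3.57 for *Ebf2* and -1.86 for *Ebf1*, because of the pseudocount's own construction. *Foxf2* lost its lone PC20 UMI in thinned cells and in cells without *Mki67* or *Top2a*. Its values there, 8.49 and 8.03, are therefore bounds with PC20 set to 3 UMIs and do not show a smaller difference. As a mean over cells *Foxf2* was at 13.25. The bound of *Zic1* moved to 10.11 in thinned cells and 9.74 in cells without *Mki67* or *Top2a*. *Foxc1* ran from 1.78, in cells without *Mki67* or *Top2a*, to 2.09. Leaving out shared barcodes, and leaving out low-UMI clusters with cells placed with the other library, were chosen after seeing the data and changed no count of members. The median over expressed genes stayed between -0.049 and 0.021. Expressed genes with a ratio above 1 numbered 1880 in the main setting, 3023 with a limit of 1% of cells and 4489 among genes with a UMI in both libraries, where 3666 lay below -1 in place of 2011, since more low genes enter. The median number of members per cell was 6 without thinning and 3 at 5000 UMIs in PC5, and 3 and 1 in PC20. Of 45 co-detection ratios in PC5, 3 crossed 1 in cells without *Mki67* or *Top2a* and 11 without thinning, and of 10 in PC20, 1 and 2. At cluster resolution 0.4, 34 of 40 highest and lowest cluster levels stayed within 1.5 times. The 34 include PC20 levels of 0 at both resolutions, which counted as unmoved and say nothing on stability. These were the lowest of *Foxc2*, *Foxf2*, *Foxd1*, *Tbx18*, *Zic1* and *Ebf2* and the highest of *Zic1*. The other 6 moved by more. In PC5 these were the highest *Foxd1* (97.1 to 62.9 CPM), *Prrx1* (344 to 193 CPM) and *Ebf1* (7.53 to 4.59 CPM). The lowest *Ebf2* of PC5 also moved (2.44 to 4.12 CPM, from 3 and 11 UMIs). In PC20 these were the highest *Ebf1* (38.3 to 19.7 CPM) and *Foxf2* (0.0186 to 0.010 CPM, from 1 UMI). No paired analysis was possible because each passage has 1 library. The lone library per passage, the confounding of passage with isolation and the few UMIs of *Foxf2*, *Foxd1*, *Tbx18* and *Ebf2* in PC20 limit all of these values, and the spread between cultures is not known.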

Other observations

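Forebrain transcription factors lay on both sides of 0. Of 14 listed 7 were expressed, 2 with a log2 ratio above 1, 4 below -1 and 1 between, with a median of -1.67. Of the 7, 4 passed the 10% limit only through PC20 and 2 only through PC5. These had to differ, so the counts and median lend no support of their own. Among all expressed genes 17.9% lay above 1 and 19.1% below -1. *Six3*, a homeobox factor of the anterior forebrain and eye, had 0.466 CPM in PC5 against 193 CPM in PC20 (log2 of -8.70), *Sox2*, a factor of neural progenitors, 0.430 and 66.8 CPM (-7.28) and *Pax6* 0.220 and 25.0 CPM (-6.83). *Six3* was in 78.7% of thinned PC20 cells and 0.147% of thinned PC5 cells, the mirror of *Tbx18*. *Dlx2* stood with the members, at 9.38 and 0.523 CPM (4.16).

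Genes of other families beside the members varied in their ratios, and those named here were picked after their values were seen. *Tbc1d2b*, 1087253 bases before *Zic1*, had 18.7 CPM in PC5 against 5.35 CPM in PC20 (log2 of 1.80), higher in PC5 as was *Zic1*. *Gmds*, 7102 bases beyond *Foxc1*, had 22.8 CPM in PC5 against 46.7 CPM in PC20 (-1.04), against 2.06 for *Foxc1*. *Cdca2*, beyond *Ebf2*, was at 8.57 and 24.1 CPM (-1.49), and *Btf3*, beside *Foxd1*, at 753 and 1098 CPM (-0.54). *Gorab*, beside *Prrx1*, was at 17.3 and 15.9 CPM (0.13), near 0 as was *Prrx1*.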
